A study of Mus musculus and Homo sapiens
Mus musculus with 12 samples.

Results

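The cerebellins Cbln1, Cbln2, Cbln3 and Cbln4 and the delta glutamate receptor gene Grid1 were read from the count tables of the mouse brain libraries by their symbols. These are 5 of the 34496 symbols in the tables, and all 5 were found and passed the filter on low counts in the fit over all nuclei. The tables come from snHH-seq, a droplet method that primes total RNA of fixed nuclei at random positions and counts each cDNA fragment once by a unique fragment identifier (UFI). The brains came from wild-type male C57BL/6J mice, and no genotype or agent differed between libraries. Nuclei were isolated from frozen or from fresh brain. Reverse transcription used primers without a barcode of the reaction well (No_index) or with one (Index). The titles give 2 No_index_frozen, 2 Index_frozen and 2 No_index_fresh libraries and 1 Index_fresh library. The treatment field contradicts the title on the primer in 4 libraries. The title was followed, since cell barcodes had 30 bases in every library titled No_index and 40 in every library titled Index. The labels do not tie replicates to separate animals, so p-values measure only the spread between these libraries, which may be technical.

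Cerebellins are small secreted proteins of the C1q family that organise synapses. They are released by the presynaptic neuron, where they hold on to neurexins, and they reach across the cleft to delta glutamate receptors of the postsynaptic neuron, which work as adhesion receptors more than as ion channels. Cbln1 and Cbln3 are known from cerebellar granule neurons, whose parallel fibres form synapses on Purkinje neurons, while Cbln2 and Cbln4 are known mainly from neurons of the forebrain and brainstem. Cbln4 also binds the receptors Dcc and Neo1. Grid1 encodes GluD1, the delta receptor of the forebrain.

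Promoters of 2 members, Cbln3 and Cbln4, were taken from RefSeq (build GRCm38.p6). Each runs from 250 bases before to 50 bases after the RefSeq gene start. These 2 are shown because Cbln3 was concentrated in 1 kind of nucleus and Cbln4 was spread over several. Promoters of Cbln1 and Grid1 were not at hand, and that of Cbln2 is not reported here. Capitals mark each match to the E-box CANNTG, which reads the same on both strands and is the site of basic helix-loop-helix factors such as those of granule neurons.
Cbln3, chr14:55884207-55884506, minus strand: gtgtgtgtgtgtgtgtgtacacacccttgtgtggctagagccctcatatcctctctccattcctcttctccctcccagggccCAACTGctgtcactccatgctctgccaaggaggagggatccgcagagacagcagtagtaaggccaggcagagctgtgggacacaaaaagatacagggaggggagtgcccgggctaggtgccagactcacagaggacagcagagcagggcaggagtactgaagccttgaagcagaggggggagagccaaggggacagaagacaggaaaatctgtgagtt
Cbln4, chr2:172043417-172043716, minus strand: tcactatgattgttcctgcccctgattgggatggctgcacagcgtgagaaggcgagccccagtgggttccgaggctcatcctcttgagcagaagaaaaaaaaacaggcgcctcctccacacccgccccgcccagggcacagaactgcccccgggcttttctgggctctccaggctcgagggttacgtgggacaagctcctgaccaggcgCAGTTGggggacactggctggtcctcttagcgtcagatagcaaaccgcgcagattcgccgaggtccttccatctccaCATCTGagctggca
The Cbln3 promoter held 1 match and the Cbln4 promoter 2. Of 32851 mouse promoters of the same length, 72.3% held at least 1 match and 39.6% at least 2, so both counts are common. G and C made up 57.0% of the Cbln3 promoter and 60.3% of the Cbln4 promoter.

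In the GENCODE annotation of the mouse build GRCm38, Cbln1 lies at chr8:87468405-87472609 on the minus strand and overlaps Gm2694, an antisense gene on the plus strand. Cbln3 lies at chr14:55878913-55884392 and Cbln4 at chr2:172036233-172043466, both on the minus strand. For Cbln3 this GENCODE start lies upstream of the RefSeq start used for the promoter, inside the sequence shown. Cbln2, Cbln3 and Cbln4 do not overlap another annotated gene. Grid1 spans 763.27 kb at chr14:34820108-35583379 on the plus strand and overlaps 4 other genes, 2 of them on its own strand (Mir346 and Gm27617). Reads were assigned to whole genes, introns included, so that a long gene such as Grid1 collects many intronic fragments from nuclei. The study describes UFI counts as strand-specific, but the strand setting of the counting step is not given in the sources used here, and for Cbln1 reads of Gm2694 may be mixed in.

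The 7 libraries held 700 to 3100 nuclei each and 11198 in all, with 8605214 to 42439731 UFIs per library and a median of 9012 to 27543 UFIs per nucleus. Pairs of libraries shared 0 to 10 cell barcodes. Clustering without the members gave 26 kinds of nuclei, of which 19 were named from markers and 7 are called by their leading genes. The 3 Index libraries stand apart, since they held no nucleus in the 2 cerebellar kinds. The 247 cerebellar granule-like nuclei, in which all 8 detected granule markers were raised at least 2-fold, numbered 73, 88, 41 and 45 in No_index_frozen 1 and 2 and No_index_fresh 1 and 2, or 10.4%, 11%, 4.10% and 3.46% of nuclei. The 34 Purkinje-like nuclei, with 7 of 7 markers raised, came from the same 4 libraries. A further 481 kidney tubule-like nuclei came from the 2 Index_frozen libraries, although the labels name only brain. Levels below are UFIs of a gene per 1000000 UFIs of a kind of nucleus in 1 library (CPM), given as mean ± SD over libraries with at least 10 nuclei of that kind. Because the kinds were defined on these same nuclei, the differences between kinds are a description, and the one test run between kinds is that of neighbours in the order of levels.

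**Figure D1:**
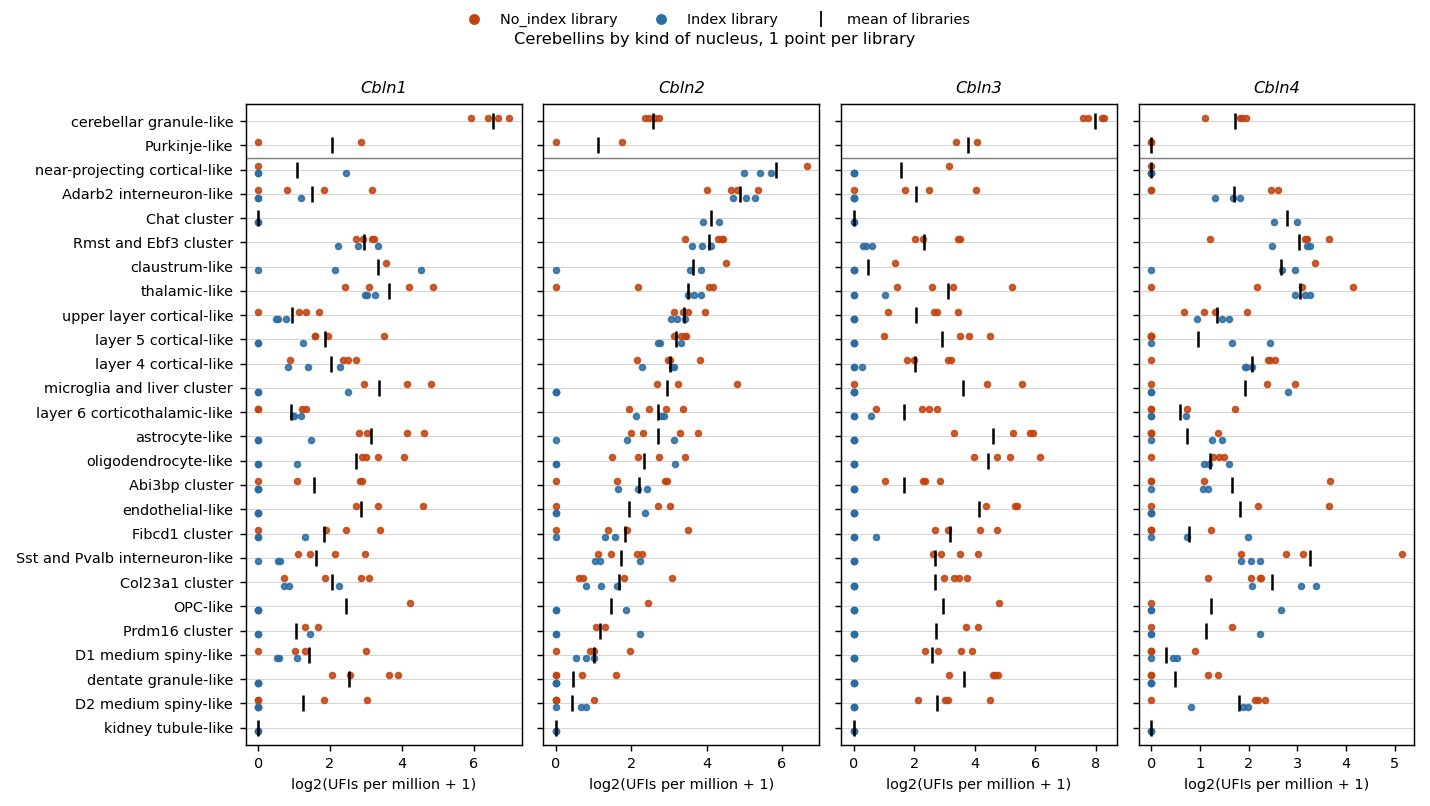
Level of the 4 cerebellins in each kind of nucleus as log2(CPM + 1), with 1 point per library (No_index in red, Index in blue) and a bar for the mean of libraries. Cerebellar kinds stand above the grey line: Cbln1 and Cbln3 were highest in cerebellar granule-like nuclei, Cbln2 in near-projecting cortical-like nuclei, and all points of Cbln3 above 2 on this scale are No_index libraries.

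Cbln3, which forms complexes with Cbln1 in granule neurons, was highest in cerebellar granule-like nuclei at 251 ± 58.6 CPM (SD, n = 4). Its level was 190 CPM in No_index_frozen 1, 211 in No_index_frozen 2, 294 in No_index_fresh 1 and 308 in No_index_fresh 2. All 4 libraries lay above every level of Cbln3 in any other kind, the highest of which was 70.3 CPM. Of the 247 granule-like nuclei, 199 (80.6%, exact 95% interval 75.1% to 85.3%) held at least 1 Cbln3 UFI, and 43.7% did after each nucleus was thinned to 3000 UFIs. In oligodendrocyte-like nuclei of the same libraries, which should lack cerebellins, the shares were 22.2% and 6.67% for Cbln3 and 11.9% and 4.44% for Cbln1, at a median of 17552 UFIs against 14374 in granule-like nuclei. Such intervals cover counting error only.

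Cbln1, the cerebellin of the parallel fibre synapse, was also highest in granule-like nuclei, at 92.6 ± 27.8 CPM (SD, n = 4). It stood at 84.0 and 59.8 CPM in the 2 No_index_frozen libraries and at 101 and 126 CPM in the 2 No_index_fresh libraries. At least 1 Cbln1 UFI was seen in 153 of the 247 nuclei (61.9%, exact interval 55.6% to 68.0%), and in 21.1% after thinning. Both genes were seen together in 141 nuclei, where the product of their shares gives 123. The 2 finer clusters of granule-like nuclei differed in both genes. Over all libraries, a cluster of 169 nuclei that also counts Gm2694 among its leading genes had 117 CPM of Cbln1 and 318 CPM of Cbln3, and a cluster of 88 nuclei led by Svep1 in its place had 43.0 and 129 CPM.

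The other members were low in granule-like nuclei. Cbln2 had 4.92 ± 0.68 CPM (SD, n = 4), the 13th of the 26 kinds. Grid1 had 844, 1105, 839 and 955 CPM in the 4 libraries, below its level in most kinds. In Purkinje-like nuclei, the target cells of the parallel fibres, Grid1 was lowest of all kinds, at 50.5 and 134 CPM in the 2 No_index_frozen libraries, the 2 with at least 10 such nuclei. Cbln3 there had 15.8 and 9.43 CPM.

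Outside the cerebellar kinds, low levels of Cbln3 were present in most kinds of nuclei of the No_index libraries. In astrocyte-like nuclei Cbln3 had 37.7, 59.6, 8.86 and 55.8 CPM in No_index_frozen 1 and 2 and No_index_fresh 1 and 2, and 0 in all 3 Index libraries. In oligodendrocyte-like nuclei the values were 35.0, 70.3, 14.5 and 25.6 CPM against 0. The groups of libraries do not overlap in either kind, though the share of all genes of which this holds was not counted. All 3 Index libraries together held 8 Cbln3 UFIs in 7398 nuclei.

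The cerebellar adhesion gene Fat2 and the granule GABA receptor subunit gene Gabra6 moved with Cbln3 across kinds. In the No_index libraries granule-like nuclei had 39.4 Cbln3 UFIs per 100 Fat2 UFIs, and the other 21 kinds with at least 20 Fat2 UFIs, a minimum chosen after the data had been seen, had 20 to 87.5, with a median of 42.1. Across 23 kinds in these libraries, Pearson's r of log2(CPM + 1) with Fat2 was 0.94 for Cbln3, 0.90 for Gabra6 and 0.73 for Cbln1. These points share libraries and depth, and r is a description. The level was 21.2 to 43.6 CPM of Cbln3 in 5 kinds, namely oligodendrocyte-like, astrocyte-like, OPC-like and endothelial-like nuclei and the microglia and liver cluster. That cluster is led by the liver genes Cps1 and Cyp2b9 and also by the microglial gene Inpp5d. In the 18 kinds of neurons outside the cerebellum the level was 1.80 to 18.9 CPM. How far free RNA or mixed droplets contribute was not tested.

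**Figure D2:**
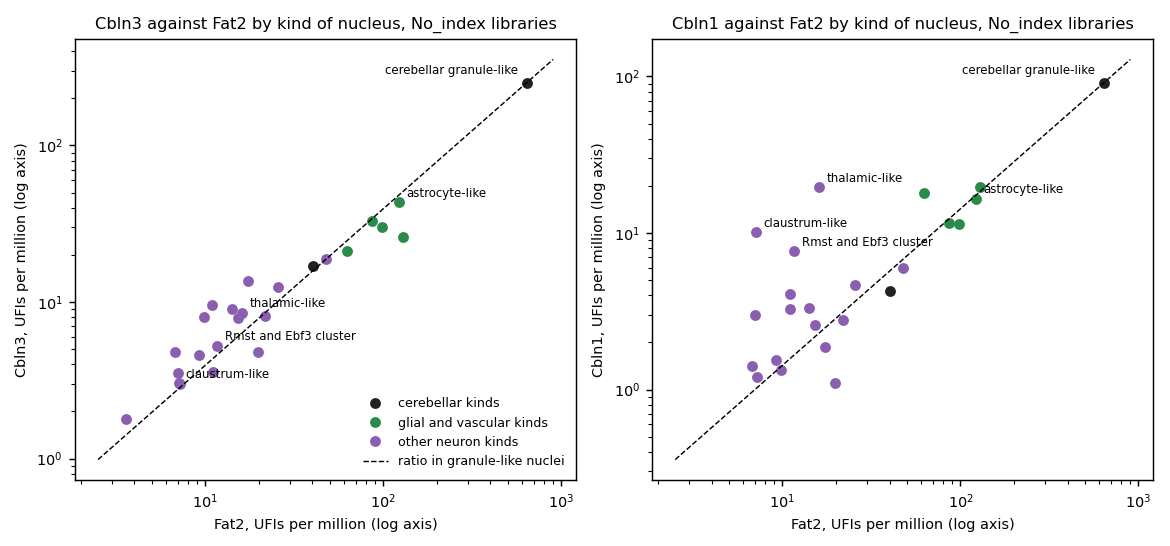
Level of Cbln3 (left) and Cbln1 (right) against Fat2 in CPM, both on log axes, with 1 point per kind of nucleus over the 4 No_index libraries and a dashed line at the ratio of granule-like nuclei. Cbln3 points lie near the line, while thalamic-like, claustrum-like and Rmst and Ebf3 nuclei lie above it for Cbln1.

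A small number of nuclei held much of this Cbln3. Outside the cerebellar kinds, 38 nuclei had 5 or more Cbln3 UFIs, all of them in No_index libraries, and together they held 34.8% of the Cbln3 UFIs there. Of these nuclei, 37 also had Fat2, with a median of 12 UFIs, and 26 had Cbln1, whereas 612 of the 3481 other No_index nuclei had any Fat2. Without them the No_index level outside the cerebellar kinds went from 9.33 to 6.12 CPM. In astrocyte-like nuclei 8 such nuclei held 69.5% of the Cbln3 UFIs, and the level went from 43.6 to 14.7 CPM without them. A Cbln3 UFI was seen in 30 of 135 oligodendrocyte-like nuclei of the No_index libraries and in 0 of 179 of the Index libraries, which allows up to 1.68% of nuclei with a UFI and does not limit expression below detection.

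Cbln1 had a further pattern that Cbln3 and Fat2 did not share. Thalamic-like nuclei had 11.5 ± 8.54 CPM of Cbln1 (SD, n = 7), from 4.35 in No_index_frozen 1 to 28.4 in No_index_fresh 2, with 6.77, 8.57 and 7.18 CPM in the 3 Index libraries. The Rmst and Ebf3 cluster, 1636 neuronal nuclei also led by the glycine receptor gene Glra1, had 6.72 ± 1.87 CPM (SD, n = 7), from 3.70 to 9.07. In both kinds Cbln1 was present in all 7 libraries, with and without cerebellar nuclei. In the Index libraries thalamic-like nuclei held 21 Cbln1 UFIs and 1 Cbln3 UFI, and the Rmst and Ebf3 cluster held 67 and 4.

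The share of Cbln1 among the UFIs of both genes describes the same contrast. In the No_index libraries it was 26.6% in granule-like nuclei (exact interval 24.3% to 28.9%). Of the 22 other kinds with a share, 17 had an interval that overlaps this one, at 12% to 45.8%, among them astrocyte-like (27.6%) and oligodendrocyte-like nuclei (26.0%). The interval lay above it in 5 kinds: thalamic-like (69.7%, 60.7% to 77.8%), claustrum-like (76.9%), Rmst and Ebf3 (59.1%), layer 4 cortical-like (53.2%) and OPC-like nuclei (45.9%, 29.5% to 63.1%). These intervals pool UFIs over libraries and cover counting error only, not the spread between libraries or nuclei. Their width follows the number of UFIs, so that Abi3bp nuclei at 45.8% overlap while OPC-like nuclei do not. Unlike thalamic-like nuclei, OPC-like nuclei held 0 Cbln1 UFIs in the 71 nuclei of the Index libraries, which allows up to 4.23% of nuclei with a UFI. Fat2 stood at 62.6 CPM in OPC-like and 16.1 CPM in thalamic-like nuclei of the No_index libraries. Over all libraries the layer 4 cortical-like finer clusters led by Rspo2 (553 nuclei) and by Gm20752 and Rorb (679 nuclei) held 39 and 11 Cbln1 UFIs. The name layer 4 rests on 3 of 5 markers raised. Rspo2 was listed as a marker of claustrum or deep intratelencephalic neurons, so the name may not hold for the cluster it leads.

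Single nuclei with many Cbln1 UFIs, picked by that count, were also described, without a test. In thalamic-like nuclei 4 nuclei had 5 or more Cbln1 UFIs, the highest 21, and held 40.4% of the 104 UFIs. None of these 4 had Cbln3 and 1 had Fat2. In the Rmst and Ebf3 cluster 9 nuclei had 5 or more, 7 of them in No_index libraries, and none had Cbln3 or Fat2. Most other No_index nuclei of these kinds also lacked Fat2. It was seen in 109 of 660 in the Rmst and Ebf3 cluster and in 32 of 148 thalamic-like nuclei. In oligodendrocyte-like nuclei 3 nuclei and in astrocyte-like nuclei 2 had 5 or more Cbln1 UFIs, all of them with Fat2. Of the other No_index nuclei there, 37 of 132 and 34 of 101 had Fat2. No claustrum-like nucleus had 5 or more Cbln1 UFIs, the highest holding 4. Claustrum-like nuclei had 9.10 ± 9.84 CPM (SD, n = 4), with 0 in Index_fresh 1 and 22.2 in Index_frozen 2, so that their SD exceeds their mean.

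Cbln2, a cerebellin of forebrain synapses that binds neurexins, was highest in near-projecting cortical-like nuclei, at 56.1 ± 30.5 CPM (SD, n = 4). The values were 51.6 in Index_frozen 1, 42.0 in Index_frozen 2, 99.97 in No_index_fresh 2 and 30.7 in Index_fresh 1. The library at the top is 1 of 4 and sets much of the SD. Of 99 near-projecting nuclei, 39 (39.4%) held a Cbln2 UFI, and 11.1% did after thinning, where oligodendrocyte-like nuclei, which should lack it, had 4.14% and 1.27%. The median depths of these kinds were 9896 and 12600 UFIs.

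Adarb2 interneuron-like nuclei, GABA neurons of the caudal ganglionic eminence, came next at 28.8 ± 8.60 CPM (SD, n = 7). Cbln2 stood at 24.1, 15.3, 40.0 and 26.9 CPM in No_index_frozen 1 and 2 and No_index_fresh 1 and 2, and at 38.1, 25.2 and 32.0 CPM in Index_frozen 1 and 2 and Index_fresh 1. The ranges of the primers overlap. The finer clusters divide this kind. A cluster of 191 nuclei led by Vip and Adarb2 had 49.2 ± 13.3 CPM (SD, n = 7) and a cluster of 108 nuclei led by Ndnf and Kit had 3.24 CPM (n = 6), and in each of the 6 libraries with both the first was higher. Its lowest level in those libraries was 38.8 CPM, and the highest of the second was 6.35 CPM. How many of all genes divide these clusters as fully was not counted.

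**Figure D3:**
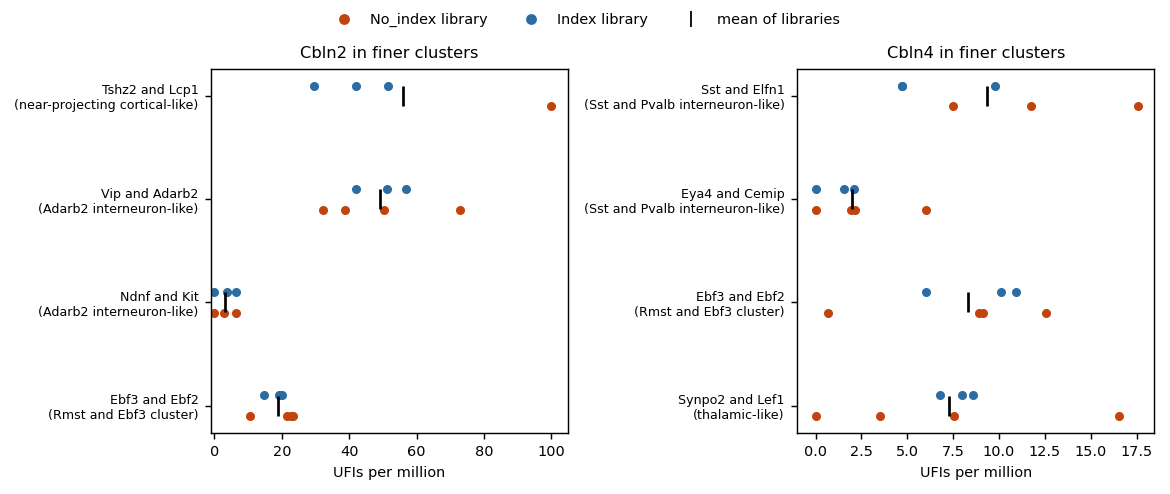
Level of Cbln2 (left) and Cbln4 (right) in CPM in finer clusters called by 2 leading genes, with the kind they belong to in brackets, 1 point per library (No_index in red, Index in blue) and a bar for the mean. Cbln2 is high in the Vip and Adarb2 cluster and near 0 in the Ndnf and Kit cluster, and Cbln4 is higher in the Sst and Elfn1 cluster than in the Eya4 and Cemip cluster.

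Further kinds had Cbln2 at lower levels. The Chat cluster, which holds the acetylcholine synthesis gene among its leading genes, had 16.4 CPM (n = 2; 25.8 CPM when clustered with 20 principal components), and the Rmst and Ebf3 cluster had 15.8 ± 4.35 CPM (SD, n = 7), from 9.72 to 20.6. Among cortical kinds the upper layer had 9.61 ± 2.39, layer 5 had 8.09 ± 1.79, layer 4 had 7.10 ± 3.22 and layer 6 had 5.56 ± 2.20 CPM (SD, n = 7 each), and these ranges overlap. D2 medium spiny-like nuclei of the striatum had 0.34 CPM, dentate granule-like nuclei 0.37 CPM, and kidney tubule-like nuclei held 0 Cbln2 UFIs in 481 nuclei, which allows up to 0.624% of nuclei with a UFI and does not limit expression below detection.

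Cbln4, the cerebellin that also binds Dcc and Neo1, was sparse, and its order across kinds is the least certain. Sst and Pvalb interneuron-like nuclei, GABA neurons of the medial ganglionic eminence, had 8.56 ± 11.5 CPM (SD, n = 7). The mean rests on No_index_frozen 1, with 34.4 CPM from 10 UFIs in 23 nuclei, and the other 6 libraries had 2.59 to 7.70 CPM. Thalamic-like nuclei had 7.29 ± 5.13 CPM, from 0 to 16.7, and the Rmst and Ebf3 cluster had 7.18 ± 3.31 CPM, from 1.30 to 11.6 (SD, n = 7 each). The 3 kinds overlap, and No_index_frozen 1, the library of fewest UFIs, had the lowest value in both of the latter.

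The finer clusters divide the interneurons for Cbln4 too. A cluster led by Sst, a peptide gene, and Elfn1 (242 nuclei) had 9.34 CPM against 1.29 CPM in a cluster led by Eya4 and Cemip in the 6 libraries with both, and was higher in 6 of 6. Its lowest library had 4.71 CPM and the highest of the other had 2.13 CPM, though the share of all genes of which this holds was not counted. In thalamic-like nuclei Cbln2 and Cbln4 were seen together in 18 of 348 nuclei, where the product of their shares gives 4.63. The other pairs of cerebellins there also exceeded their product, among them Cbln1 with Cbln2 (14 against 6.72) and with Cbln3 (7 against 2.72). Nuclei with both Cbln2 and Cbln4 had a median of 21858 UFIs against 15728 for the kind, and the part of depth was not tested.

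Grid1 UFIs were found in all 26 kinds, in 85.4% of granule-like and 77.1% of oligodendrocyte-like nuclei and in 99 of 99 near-projecting nuclei, and the part of free RNA in the low kinds was not tested. Near-projecting nuclei had 1958 ± 397 CPM (SD, n = 4), claustrum-like nuclei 1892 ± 437 (SD, n = 4) and OPC-like nuclei, the oligodendrocyte precursors, 1873 ± 190 (SD, n = 4). Their ranges overlap. The low means of libraries, in CPM, were Sst and Pvalb interneuron-like (783 ± 56.7, n = 7) and Chat cluster nuclei (631, n = 2). Below them lay endothelial-like nuclei (560 ± 243, n = 6). Kidney tubule-like (124 ± 2.48, n = 2) and Purkinje-like nuclei (92.4 ± 59.3, n = 2) were lowest. The Chat cluster mean leaves out libraries with few of its nuclei. Over all 7 libraries its 58 nuclei together had 1018 CPM, so its place among the low kinds is not settled.

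**Figure D4:**
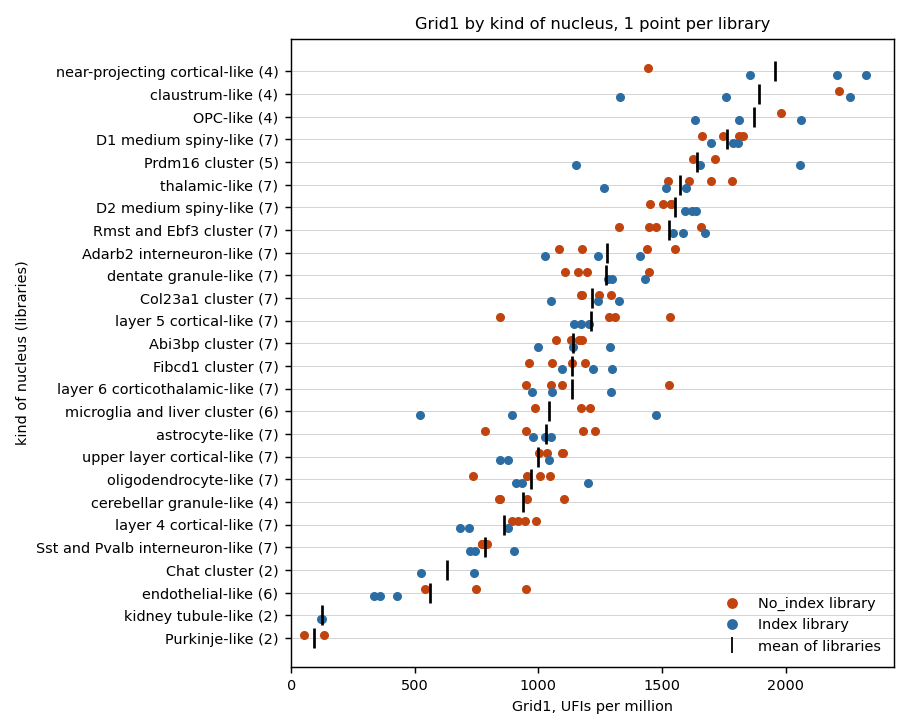
Grid1 in CPM by kind of nucleus, ordered by the mean, with 1 point per library (No_index in red, Index in blue), a bar for the mean and the number of libraries in brackets. D1 medium spiny-like nuclei lie at 1660 to 1826 and D2 at 1450 to 1636, and Purkinje-like and kidney tubule-like nuclei lie below all other kinds.

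Kinds of nuclei that lie close in lineage differed in Grid1. D1 medium spiny-like nuclei of the striatum had 1826, 1660, 1811 and 1745 CPM in No_index_frozen 1 and 2 and No_index_fresh 1 and 2, and 1788, 1697 and 1808 in Index_frozen 1 and 2 and Index_fresh 1. D2 medium spiny-like nuclei had 1536, 1503, 1450 and 1534, and 1622, 1636 and 1592 CPM in the same order. D1 nuclei were higher in 7 of 7 libraries, by 209 ± 96.9 CPM (SD), and the ranges do not overlap. How many of all genes separate these kinds as fully was not counted, nor was it for the pairs that follow. Adarb2 interneuron-like nuclei had 1276 ± 196 CPM and exceeded Sst and Pvalb interneuron-like nuclei in 7 of 7 libraries, by 493 ± 182 CPM. This did not hold for all their finer clusters. The Vip and Adarb2 cluster had 1506 CPM and the Ndnf and Kit cluster 876 CPM, the first higher in 5 of 6 libraries. The Sst and Elfn1 cluster had 975 CPM and the Eya4 and Cemip cluster 667 CPM, the first higher in 6 of 6. Among layer 6 nuclei a finer cluster led by Ctgf and Rai14 had 1495 CPM, higher in 7 of 7 libraries than one led by RP24-279F18.1 and Arhgap25 (896 CPM). Whether the name corticothalamic holds for the Ctgf and Rai14 cluster was not tested.

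For the 5 members, 110 pairs of kinds outside the cerebellum and kidney that follow each other in the order of levels were compared over the libraries that had both, with a two-sided exact sign-flip permutation test. No pair had an unadjusted p under 0.05. In 38 pairs too few libraries had both kinds for any p to reach it, and even the smallest p of 7 libraries, 0.0156, would stay above an adjusted 0.05 when it stands alone among 110 pairs. The test does not settle the order of neighbours and does not show that they are equal.

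The genes most like each member across the 26 kinds were taken by Pearson's r of log2(CPM + 1) among 9873 genes that reach 20 CPM in some kind, as a description. For Cbln3 they were Fat2 (0.97), Gabra6 (0.94) and the hindbrain homeobox gene En2 (0.91). For Cbln1 they were Fat2 (0.83), Cnpy1 (0.83) and Cbln3 (0.82). The granule-like kind is the highest for all of these, and it is 1 of the 26 points. Cbln2 was most like Vwc2l (0.85), Coro2a (0.78) and Vezt (0.78), Cbln4 most like the cadherin gene Cdh4 (0.70), the potassium channel gene Kcnc2 (0.69) and Tspan17 (0.68), and Grid1 most like Gm5577 (0.95), Jazf1 (0.92) and Rgs17 (0.92).

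The partners of cerebellins had patterns of their own. Of the neurexins, the presynaptic receptors, Nrxn3 was highest in Adarb2 interneuron-like nuclei at 11363 ± 3322 CPM (SD, n = 7), the kind that comes next to the top for Cbln2. Nrxn2 was highest in OPC-like nuclei at 908 ± 184 CPM (SD, n = 4) and next in granule-like nuclei at 508 ± 44.8 CPM (SD, n = 4). The netrin receptor gene Dcc was highest in near-projecting nuclei, at 3322 ± 750 CPM (SD, n = 4), and its relative Neo1 in oligodendrocyte-like nuclei, at 271 ± 57.1 CPM (SD, n = 7).

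The C1ql genes encode related C1q proteins that bind Adgrb3, an adhesion receptor. C1ql2 and C1ql3 were highest in dentate granule-like nuclei, at 72.9 ± 19.1 and 89.6 ± 14.2 CPM (SD, n = 7 each), a kind with almost no Cbln2. C1ql1 was highest in OPC-like nuclei at 80.9 ± 14.9 CPM (SD, n = 4), where the next kind had 7.09 CPM. Adgrb3 was highest in Purkinje-like nuclei, at 7306 ± 187 CPM (SD, n = 2), the kind that was lowest for Grid1. C1ql4 reached at most 1.58 CPM, from 1 UFI.

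The remaining comparisons ask whether the members differ with storage or primer. In UFIs summed over all nuclei of a library, fewer nuclei of a kind and less RNA per nucleus cannot be told apart. For the primer, Cbln3 had 28.8, 36.0, 14.9 and 17.3 CPM in No_index_frozen 1 and 2 and No_index_fresh 1 and 2, and 0.04, 0.09 and 0.12 CPM in Index_frozen 1 and 2 and Index_fresh 1. Cbln1 had 11.97, 11.1, 7.68 and 10.1 CPM against 1.90, 1.57 and 1.65. The primers do not overlap for either gene, but how many of all genes also separate them was not counted.

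In edgeR's quasi-likelihood test, 2 of the 5 members passed an adjusted p of 0.05 for the primer, both lower with Index, where 15.8% of all genes tested passed and 7.88% were lower. The Cbln1 log2 fold change was -2.53 ± 0.16 (SE, adjusted p = 0.000425), and Cbln3 passed at an adjusted p of 8.19e-05. Cbln3 held only 1, 3 and 4 UFIs in Index_frozen 1 and 2 and Index_fresh 1. The filter on low counts therefore kept it through the No_index libraries, with and without cerebellar nuclei, and its calls describe a gene that was high there. The log2 fold changes were -0.28 ± 0.13 for Cbln2 (adjusted p = 0.17), -0.17 ± 0.17 for Cbln4 (adjusted p = 0.55) and 0.04 ± 0.05 for Grid1 (adjusted p = 0.59). With the 281 cerebellar nuclei left out, 12.6% of genes passed and 6.19% were lower, and Cbln1 (log2 fold change -1.63, adjusted p = 0.0044) and Cbln3 (-6.93, adjusted p = 0.0005) still passed. As pooled ratios with counting intervals, the No_index level of Cbln3 was 234 times the Index level (119 to 543) over all nuclei and 105 times (53.1 to 244) without cerebellar nuclei. For Cbln1 the ratios were 5.76 (4.85 to 6.89) and 3.41 (2.84 to 4.12). Since the Index libraries held no granule-like nuclei, the primer and the part of the brain that entered the library cannot be told apart here.

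**Figure D5:**
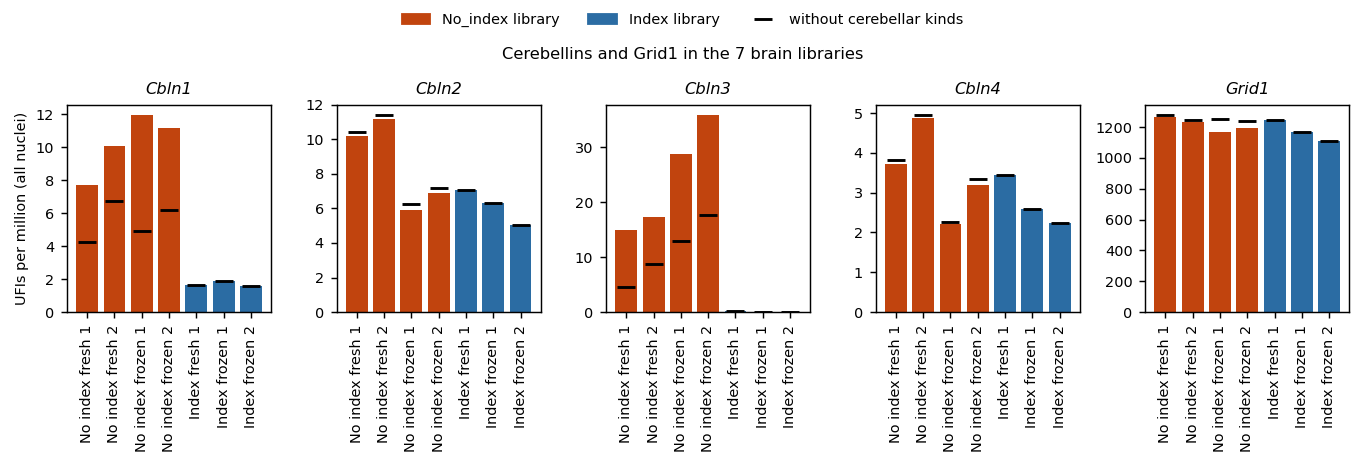
Level of the 5 members in CPM over all nuclei of each library (bars, from 0; No_index in red, Index in blue), with black marks for the level without cerebellar kinds. Cbln3 is at 14.9 to 36.0 in No_index libraries and at most 0.12 in Index libraries, its black marks lie below the bars but above the Index level, and Grid1 differs little between libraries.

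Within kinds of nuclei the same fit was run for the 13 kinds with at least 20 nuclei in every library, in which 0.539% to 4.15% of genes passed for the primer, 1.74% over all the kinds, 0.745% being lower. Cbln3 was lower with Index in 10 of the 11 kinds where it was tested at an adjusted p of 0.05 in edgeR. It missed the threshold in layer 5 cortical-like nuclei (adjusted p = 0.093 in edgeR) and failed the filter on low counts in layer 6 corticothalamic-like and Abi3bp nuclei. The filter kept Cbln3 through its No_index libraries, so that this count describes the kinds where it was high there. Cbln1 passed in 1 of 6, dentate granule-like nuclei (adjusted p = 0.030 in edgeR), where the No_index libraries had 3.16 to 13.9 CPM and all 3 Index libraries 0, so that it too passed the filter through the No_index libraries. In the Rmst and Ebf3 cluster its log2 fold change was -0.24 ± 0.32 (SE, adjusted p = 0.74 in edgeR). Thalamic-like nuclei were not fitted, since a library had fewer than 20. Cbln2 passed in 0 of 5 kinds, Cbln4 in 0 of 5 and Grid1 in 0 of 13. Over the 40 tests, 11 passed and 18 had an unadjusted p under 0.05. Genes with such a p numbered from 835 of 7664 in Fibcd1 to 2484 of 13124 in Rmst and Ebf3 nuclei.

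For storage, 0 of the 5 members passed in edgeR, where 0.207% of all genes did. Unadjusted p was under 0.05 for 3 members and for 2901 of the 19299 genes tested in edgeR. DESeq2 also passed 0 members, where 1.64% of all genes passed. The log2 fold changes of frozen over fresh were 0.99 ± 0.19 for Cbln3 (adjusted p = 0.0997), -0.55 ± 0.13 for Cbln2 (adjusted p = 0.14) and -0.59 ± 0.17 for Cbln4 (adjusted p = 0.18). In the No_index libraries alone, where Cbln2 had 5.93 and 6.92 CPM in frozen and 10.2 and 11.2 CPM in fresh brain, Cbln3 (1.07, adjusted p = 8.7e-05) and Cbln2 (-0.68, adjusted p = 0.0197) passed in edgeR, where 3.82% of all genes did. Within the 13 kinds 0 of 40 tests passed for storage in edgeR, where 0.0117% to 0.647% of genes passed, 0.204% over all the kinds. Of the 40 tests, 7 had an unadjusted p under 0.05. Genes with such a p numbered from 343 of 8574 in oligodendrocyte-like to 1079 of 11135 in upper layer cortical-like nuclei. The interaction of storage and primer passed for 0 of the 5 members, where 16.4% of genes passed. Of the 5 members, 1, Grid1, had an unadjusted p under 0.05, as did 5526 of the 19299 genes tested.

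The storage values of Cbln3 differ in sign between all nuclei and granule-like nuclei. Within granule-like nuclei Cbln3 averaged 201 CPM in frozen and 301 CPM in fresh No_index libraries, and Cbln1 averaged 71.9 and 113 CPM. Neither pair of ranges overlaps, but the exact two-sided permutation test gives p = 0.333, the smallest that 2 against 2 allow. In the other direction, Cbln2 (means 5.47 frozen and 4.37 fresh CPM) and Cbln4 (2.74 and 1.82 CPM) did not overlap either. The ranges of Grid1 overlapped. The share of all genes that separate in this way was not counted. Over all nuclei the frozen No_index libraries were the higher ones for Cbln3, and they also had the larger shares of granule-like nuclei, 10.4% and 11% against 4.10% and 3.46%. Without the cerebellar nuclei the log2 fold change of Cbln3 for storage was 1.12 ± 0.34 (SE, adjusted p = 0.23 in edgeR), against 0.99 over all nuclei. Other kinds of nuclei in the No_index libraries also held Cbln3 UFIs. The part of the share of granule-like nuclei in either value was not tested. Granule-like nuclei held 58.5%, 56.0%, 70.4% and 50% of all Cbln3 UFIs in No_index_frozen 1 and 2 and No_index_fresh 1 and 2.

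Of the 9 partner genes reported, all tested over all nuclei, 1 was higher and 2 were lower with Index in edgeR, where 15.8% of all genes passed. In DESeq2 5 passed, where 15.9% of all genes did. Nrxn3 rose by 0.26 on the log2 scale (adjusted p = 0.027), Nrxn2 fell by 0.20 (adjusted p = 0.017), and C1ql2 fell by 1.10 (adjusted p = 0.0067). The median log2 fold change of the 9 was -0.16. For storage 0 of 9 passed in edgeR and 0 in DESeq2. In edgeR 2 had an unadjusted p under 0.05, as did 2901 of the 19299 genes tested. Within kinds and for the primer, where 1.74% of genes passed, Nrxn3 was higher in 4 and lower in 1 of 13 kinds, Dcc higher in 3 and Adgrb3 higher in 3.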

How the data were processed

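The authors trimmed tails with Cutadapt, picked barcodes by hand from read numbers, mapped reads with STAR, dropped those without a unique position, and used featureCounts and UMI-tools for the gene and UFI counts. Submitters' processing notes name the mouse builds GRCm38 and mm10 and the human build GRCh38, with no role. The deposited values are raw UFI counts for each gene and nucleus. The species-mix libraries of the series were not analysed here.

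All 11198 nuclei were kept. UFIs were scaled to 10000 per nucleus and logged, and the 5 members and 10 partners were set aside. With scanpy 1.11.5, 2000 variable genes, 40 principal components, 10 neighbours and Leiden clustering at a resolution of 0.4 gave the kinds. Harmony and a doublet caller were not used; 917 nuclei above 2 times their library's median UFIs were left out in an alternative. A kind was named from markers raised at least 2-fold, and finer clusters came from a resolution of 1.2. UFIs summed per library were tested in edgeR 4.0.16 (filterByExpr, TMM, glmQLFTest, storage and primer as terms, Benjamini-Hochberg adjustment over all genes), with DESeq2 1.42.0 as an alternative. On simulated data over 19299 genes, 100 of 100 well-counted genes changed 2-fold were recovered for each factor. The simulated libraries shared the same composition and a fixed spread, unlike the real ones, so this checks the code and not the power here. Shares have exact Clopper-Pearson intervals at 95%. The limit for a count of 0 is 3 counts.

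Named genes are the 5 members, 10 partners of which 9 are reported here (neurexins, Dcc, Neo1, C1ql genes and Adgrb3) and the 3 genes most like each member. Leading genes name clusters, and 1 finer cluster is not reported here. Fat2, Gabra6 and high-count nuclei were looked at after their values were seen. Members and lists were chosen with earlier results of these data known. Alternatives covered tool, scaling, filter, replicate block, libraries, kinds left out, clustering and depth.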

Additional observations from a re-analysis of the deposited data

Results flagged for a closer look

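Cbln4 in Sst and Pvalb interneuron-like nuclei had 34.4 CPM in No_index_frozen 1, far above the other 6 libraries (Dixon ratio 0.839). It was the 1 such case among 24 groups, where chance gives about 1 in 20, and it rests on 10 UFIs. The effect of storage differed by primer in edgeR's interaction test for 2 of the 9 partner genes reported, with log2 differences of -0.31 for Dcc (adjusted p = 0.032) and -0.32 for Adgrb3 (adjusted p = 0.0131), where 16.4% of all genes passed and Index_fresh has 1 library.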

How the results depend on the processing

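Of 375 values under alternatives, 348 kept their direction and side of the threshold or moved by less than the spread. The count of members called for storage, 0 in the report, was 3 without a filter on low counts (5.62% of all genes called in that fit), 1 without kidney and liver nuclei (0.209%), 1 in neurons alone (0.517%), 2 in No_index libraries alone (3.82%) and 0 to 2 with each library left out. It was 2 without Index_fresh replicate 1 (4.63%). Cbln3 passed in each of these fits that gave a call, and Cbln2 (adjusted p = 0.0014) and Cbln4 (0.025) joined it without the filter in edgeR. The primer value of Grid1 turned from 0.04 to -0.019 without Index_fresh replicate 1, to -0.024 in frozen libraries alone and to -0.0056 without cerebellar nuclei, and its range with each library left out was -0.019 to 0.079. It was 0.17 (adjusted p = 0.0165 in edgeR) without kidney and liver nuclei and 0.16 (0.0168) in neurons alone. The 11 calls within kinds for the primer became 7 to 10 with each library left out, with 7 without No_index_frozen 2, Index_frozen 1 or No_index_fresh 2. Thinning took the share of nuclei with a UFI to 21.1% for Cbln1 and 43.7% for Cbln3 in granule-like nuclei, 11.1% for Cbln2 in near-projecting nuclei and 2.37% for Cbln4 in Sst and Pvalb interneuron-like nuclei. Other causes were not tested.

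Over all genes, 40 passed for storage and 4 to 1937 under alternatives, and 3041 for the primer against 1009 to 5668. Same-numbered libraries did not deviate together (correlations -0.01, 0.04 and -0.04 over 19299 genes). This check compares only the difference of replicates between groups, so it cannot exclude that the numbers pair the libraries. With a replicate block the counts were 5 and 1731, 2 members passed for the primer and 0 for storage. Replicates differed beyond counting noise (chi-square per degree of freedom 2.38 to 3.96). With 20 principal components 19 clusters formed, and near-projecting, Adarb2 interneuron-like and claustrum-like nuclei were not recovered, so the levels of Cbln2 and Grid1 in them have no value there.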
